A study of Mus musculus with 9 samples.

Results

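Collagens and laminins are the main structural proteins of the extracellular matrix, and their chains are encoded by separate genes. The 46 genes described here, 36 for collagen chains and 10 for laminin chains, are those whose symbol has the form of a collagen or laminin chain and which were measured by at least 1 probe set annotated to that symbol alone. They are 46 of the 12393 genes measured, and 74 of the 22626 probe sets tested belong to them. The RefSeq gene table lists 55 genes with such symbols, and the other 9 were not analysed here. A gene's value is the mean log2 value of its probe sets, and 22 of the genes rest on 1 probe set. The genes were split by the structure their chains build into 9 fibrillar collagen genes, 16 basement membrane genes (the chains of collagen IV and the laminin chains measured) and 21 other collagen genes.

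RNA from whole mouse embryos at 9.5 days post coitum (dpc) was hybridised to 9 Affymetrix arrays in 5 genotype groups. The arrays called Notch1 null here (2) carry Notch1tm1Con on both chromosomes, and Notch1 het (1) carries that targeted allele over a wild-type one (Notch1tm1Con/+). Dll3 null (2) is Dll3neo/neo, Dll3 het (2) is Dll3neo/+, and wild type (2) carries wild-type alleles at both loci. Notch1 encodes a receptor of the Notch pathway and Dll3 a divergent ligand that acts in somite formation. A strain, C57BL/6J, is named for only 1 of the arrays, Notch1 null replicate 1. Both alleles are inherited by every cell, so a difference does not show in which tissue it arose, and in RNA from whole embryos fewer cells of a type cannot be told apart from less RNA per cell. The labels do not say whether an array holds 1 embryo or several, or whether replicates came from separate litters, so the spread that the p-values measure is that between these arrays and may be technical.

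Several measurements of the arrays bear on every comparison below. Against wild type, the Notch1 probe set 1418633_at was higher by 0.71 ± 0.13 (log2 and SE, adjusted p = 0.0138 by limma) in the arrays labelled Notch1 null. The other Notch1 probe set, 1418634_at, differed by 0.60 ± 0.23 and did not pass (adjusted p = 0.142). The Dll3 probe set did not pass the test in Dll3 null (-0.27 ± 0.12, adjusted p = 0.486). None of these values checks the labels, because the sources used here do not say where these probes lie relative to the altered sequence. The level of dap, a control RNA added to the sample before labelling, was 6.61 and 9.20 times its own reference in wild type, 5.26 and 2.62 in Notch1 null, 1 in Notch1 het and 0.360 to 0.403 in the 4 Dll3 arrays. Between the Dll3 arrays and the others, the Dll3 allele and whatever set the level of dap cannot be told apart. By Xist and the Y-linked gene Eif2s3y, both wild-type arrays and replicate 2 of each other pair looked male, and the 4 arrays left, replicate 1 of each targeted genotype, looked female. Each deposited value is a ratio to a number of the probe set's own, so a gene can be compared between arrays but its level cannot be compared with that of another gene, and nothing shows whether a transcript was detected.

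Each collagen or laminin molecule is a trimer of chains wound around each other. Fibrillar collagens, such as collagen I, bundle into the cable-like fibrils of connective tissue. Collagen IV forms a flexible network that, together with a second network of laminin, makes the basement membrane, the thin sheet under epithelia and around vessels, muscle and the notochord. In the early mouse embryo the laminin chains beta 1 and gamma 1 pair with alpha 1 or alpha 5, and basement membranes built on them surround the neural tube, the somites and the gut. Somites, whose formation depends on Notch signalling, are wrapped in such a matrix and later give rise to the cartilage of the vertebrae, which is rich in collagen II.

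The promoters of 3 basement membrane genes are shown because the values of these genes carry the main patterns described here. They are RefSeq windows of 300 bases on GRCm38.p6, from 250 bases before to 50 bases after the annotated start, written 5′ to 3′ on the strand of the gene. Col4a1 (chr8:11312777-11313076, minus strand) and Col4a2 (chr8:11312555-11312854, plus strand) lie head to head, with starts 21 bases apart on opposite strands. In their windows the capitals mark the 78 bases that both share, each stretch being the reverse complement of the other.
Col4a1: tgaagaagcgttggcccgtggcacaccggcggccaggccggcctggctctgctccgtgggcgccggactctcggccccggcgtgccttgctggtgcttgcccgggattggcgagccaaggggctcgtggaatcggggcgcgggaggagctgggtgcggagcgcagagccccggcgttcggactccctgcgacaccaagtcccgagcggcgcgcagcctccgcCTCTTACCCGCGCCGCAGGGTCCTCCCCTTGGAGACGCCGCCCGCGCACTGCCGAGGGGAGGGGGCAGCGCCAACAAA
Col4a2: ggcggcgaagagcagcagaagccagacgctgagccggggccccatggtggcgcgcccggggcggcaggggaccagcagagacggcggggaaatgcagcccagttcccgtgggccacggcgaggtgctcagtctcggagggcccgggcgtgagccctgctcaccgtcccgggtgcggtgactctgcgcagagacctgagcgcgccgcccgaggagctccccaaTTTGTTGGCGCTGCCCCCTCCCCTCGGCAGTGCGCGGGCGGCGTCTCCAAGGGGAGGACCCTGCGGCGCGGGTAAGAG
In the window of Lamb1 (chr12:31265043-31265342, plus strand) the capitals mark 3 matches that a search found on either strand: TGGGAA, the core bound by RBPJ, the DNA-binding partner of Notch, which occurs at 2 places, and CACGC, the other-strand reading of GCGTG, a core of the hypoxia response element, which occurs at 1 place and abuts the second TGGGAA.
Lamb1: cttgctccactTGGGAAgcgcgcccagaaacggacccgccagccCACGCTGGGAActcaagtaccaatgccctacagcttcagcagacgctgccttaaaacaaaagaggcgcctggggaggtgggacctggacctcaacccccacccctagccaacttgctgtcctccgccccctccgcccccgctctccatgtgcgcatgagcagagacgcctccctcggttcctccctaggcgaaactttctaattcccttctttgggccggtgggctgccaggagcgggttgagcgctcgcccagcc

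Such short motifs are common. TGGGAA was present, on either strand, in 25.6% of all 32851 promoter windows and in 13 of the 36 windows (36.1%) that the table holds for 32 of the 46 genes. GCGTG was present in 32.4% of all windows and 11 of the 36 (30.6%), and ACGTG, the other hypoxia core, in 19.6% of all windows and 4 of the 36 (11.1%). GGGCGG, the GC box bound by factors of the Sp family, was found in 20 of the 36 windows (55.6%) and 35.7% of all, and the median GC content was 59.3% in the former and 52.7% overall. The window of Lama5 held 4 copies of the GC box and none of the RBPJ or hypoxia cores. A match is a description of the letters and not of a bound site. Col4a5 and Col4a6, a second head-to-head pair, on the X chromosome, have starts 1343 bases apart and windows that share 0 bases.

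The first comparison, of Notch1 null with wild type, asks which matrix genes follow loss of the receptor. Of the 46 genes 3 rose and 0 fell: the laminin chains Lamb1 (1.77-fold) and Lama5 (1.47-fold) and the fibrillar chain Col5a2 (1.41-fold). These 3 are 6.52% of the members, where 3.76% of all genes rose, while 8.35% of all genes fell. A gene is said to rise or fall, or to be changed, where its adjusted p in a limma fit over all 12393 genes is under 0.05. The median log2 difference was 0.11 over the fibrillar genes, 0.13 over the basement membrane genes, 0.00 over the other collagens and 0.04 over all members, beside -0.03 over all genes. Without the test, both Notch1 null arrays lay above both wild-type arrays for 13 members (8 of them basement membrane genes, 3 fibrillar and 2 other), against 20.6% of all genes. Both lay below for 8 members (1 basement membrane gene, 1 fibrillar and 6 other), against 35.6% of all genes.

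**Figure D1:**
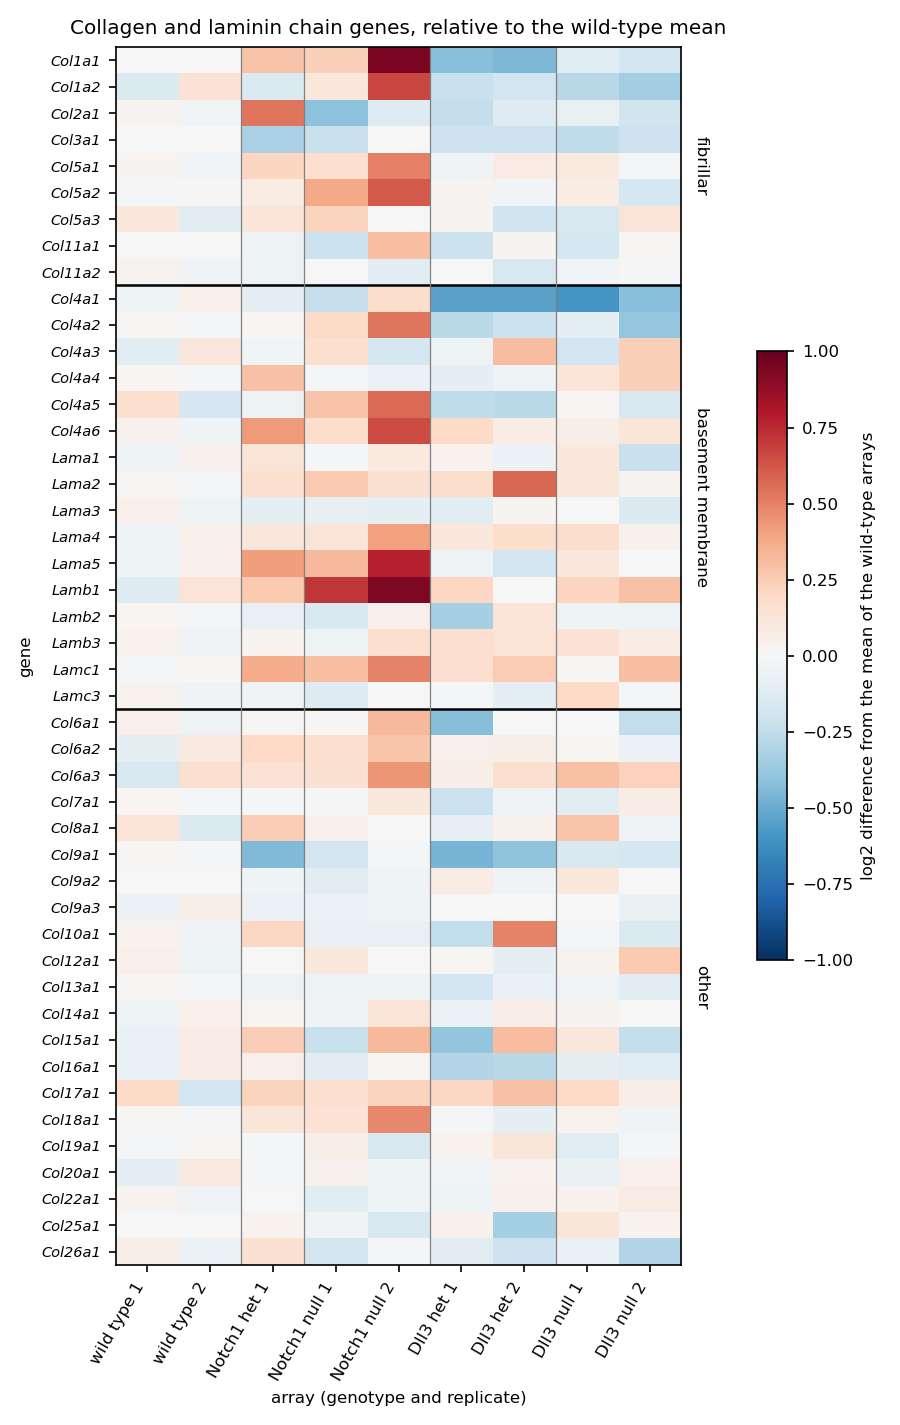
Log2 difference of each of the 46 genes (rows, by class) from the mean of the 2 wild-type arrays, on each of the 9 arrays (columns); red is higher, blue lower, and the colour range is -1 to 1. The reddest column is Notch1 null replicate 2, and the 3 bluest cells are Col4a1 in both Dll3 het arrays and in Dll3 null replicate 1.

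Among laminin genes Lamb1 had the clearest change. It encodes the beta 1 chain found in most laminins of the early embryo. Its log2 values were 0.51 and 0.73 in Notch1 null, 0.06 in Notch1 het, -0.34 and -0.07 in wild type, 0.01 and -0.20 in Dll3 het, and 0.01 and 0.09 in Dll3 null. Both Notch1 null arrays lay above the 7 others, and the heterozygous array lay between them and wild type. In probe set 1424113_at the heterozygous array read -0.08, below wild type at -0.03 and 0.32. Lamb1 was 1.77-fold higher in Notch1 null than in wild type (log2 0.83 ± 0.13 SE, adjusted p = 0.00453). This call was kept in 17 of 17 alternative settings, with adjusted p up to 0.0482. Among these settings, leaving out the Notch1 het array could not change a comparison between other groups. Leaving out a Dll3 array changed only the shared estimate of spread for Notch1 null against wild type. The probe sets of Lamb1 did not move alike. The difference was 1.14 ± 0.14 (adjusted p = 0.00262) for 1424114_s_at, whose suffix marks probes shared by more than 1 transcript, 0.87 ± 0.15 (adjusted p = 0.00905) for 1451241_at and 0.47 ± 0.16 (adjusted p = 0.109) for 1424113_at.

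Lama5 encodes the alpha 5 chain, which takes the place of alpha 1 in most embryonic epithelia. Its values were 0.25 and 0.71 in Notch1 null, 0.35 in Notch1 het, -0.12 and -0.03 in wild type, -0.12 and -0.26 in Dll3 het, and 0.03 and -0.07 in Dll3 null. The 3 arrays carrying a targeted Notch1 allele stood above all 6 others, and Notch1 null replicate 2 was the highest. Lama5 was 1.47-fold higher in Notch1 null (log2 0.55 ± 0.14, adjusted p = 0.0331), although neither of its 2 probe sets passed when tested by itself (adjusted p = 0.0539 and 0.0582). The call was lost in 5 of 17 alternatives. Without Notch1 null replicate 2 the difference was 0.33 (adjusted p = 0.203), without wild type replicate 1 it was 0.51 (adjusted p = 0.158) and without wild type replicate 2 it was 0.60 (adjusted p = 0.11). It also missed the threshold with only the arrays of the groups compared (adjusted p = 0.0667) and with sex as a covariate (adjusted p = 0.0534).

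Lamc1, the gamma 1 chain that partners beta 1, did not pass as a gene. It read 0.11 and 0.31 in Notch1 null, 0.19 in Notch1 het, -0.21 and -0.16 in wild type, -0.02 and 0.07 in Dll3 het, and -0.18 and 0.11 in Dll3 null. Wild type was lowest, with Dll3 null replicate 1 between its 2 arrays, and the null arrays did not stand apart from the heterozygote. The difference of Notch1 null from wild type was 0.40 ± 0.12 (1.32-fold, adjusted p = 0.0578), made up of 0.67 ± 0.14 (adjusted p = 0.0166) for probe set 1423885_at and 0.12 ± 0.17 (adjusted p = 0.734) for 1423886_at. The gene passed with sex as a covariate (0.49 ± 0.11, adjusted p = 0.0244). It also passed when either of the Dll3 null arrays was left out, which changes only the shared estimate of spread. Lamb1, Lama5 and Lamc1 would assemble into 1 laminin; their differences of 0.83, 0.55 and 0.40 were not tested against each other.

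The remaining laminin chains did not pass in any of the 7 comparisons. Lama1, the alpha 1 chain of the earliest embryonic basement membranes, read -0.04 and 0.07 in Notch1 null, 0.09 in Notch1 het, -0.08 and 0.01 in wild type, 0 and -0.09 in Dll3 het, and 0.07 and -0.25 in Dll3 null. Lama2, the alpha chain of muscle basement membranes, read 0.11 and 0 in Notch1 null, 0.01 in Notch1 het, -0.14 and -0.16 in wild type, 0.03 and 0.42 in Dll3 het, and -0.04 and -0.13 in Dll3 null. The values of Lama1 overlapped between Notch1 null and wild type, with a difference of 0.04 ± 0.12 and a 95% interval of -0.22 to 0.31, whereas those of Lama2 did not (0.21 ± 0.13, adjusted p = 0.36). Lama4, the alpha chain of vessel walls, read -0.0014 and 0.29 in Notch1 null, -0.01 in Notch1 het, -0.18 and -0.08 in wild type, -0.02 and 0.05 in Dll3 het, and 0.05 and -0.08 in Dll3 null. Its null arrays lay above both wild-type arrays (0.27 ± 0.11, adjusted p = 0.173), and the 3 genotypes ran in the order of the number of targeted alleles. In Lama4 probe set 1424808_at neither held. It read -0.0029 and 0.20 in Notch1 null, 0 in Notch1 het, and 0.03 and -0.12 in wild type.

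Lama3, the lowest of the basement membrane genes in Notch1 null against wild type, encodes an alpha chain of the skin and other epithelia and read 0 and -0.01 in Notch1 null, -0.01 in Notch1 het, 0.13 and 0.03 in wild type, -0.03 and 0.11 in Dll3 het, and 0.08 and -0.05 in Dll3 null. Its difference was -0.09 ± 0.10 (adjusted p = 0.664). The beta chain genes Lamb2, a component of the basement membranes of muscle and kidney, and Lamb3, which partners Lama3, had differences of -0.05 ± 0.14 and 0.06 ± 0.10. Lamb2 read -0.11 and 0.10 in Notch1 null, -0.03 in Notch1 het, 0.07 and 0.02 in wild type, -0.29 and 0.18 in Dll3 het, and 0 and -0.0043 in Dll3 null. Lamb3 read -0.13 and 0.09 in Notch1 null, -0.04 in Notch1 het, -0.04 and -0.11 in wild type, 0.09 and 0.06 in Dll3 het, and 0.07 and 0 in Dll3 null. In both genes the widest gap between 2 replicates was larger than any gap between group means. Lamc3, another gamma chain, read -0.11 and 0.02 in Notch1 null, -0.02 in Notch1 het, 0.05 and -0.02 in wild type, -0.0024 and -0.08 in Dll3 het, and 0.22 and 0.0014 in Dll3 null, and its difference in Notch1 null was -0.06 ± 0.10 (adjusted p = 0.776).

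**Figure D2:**
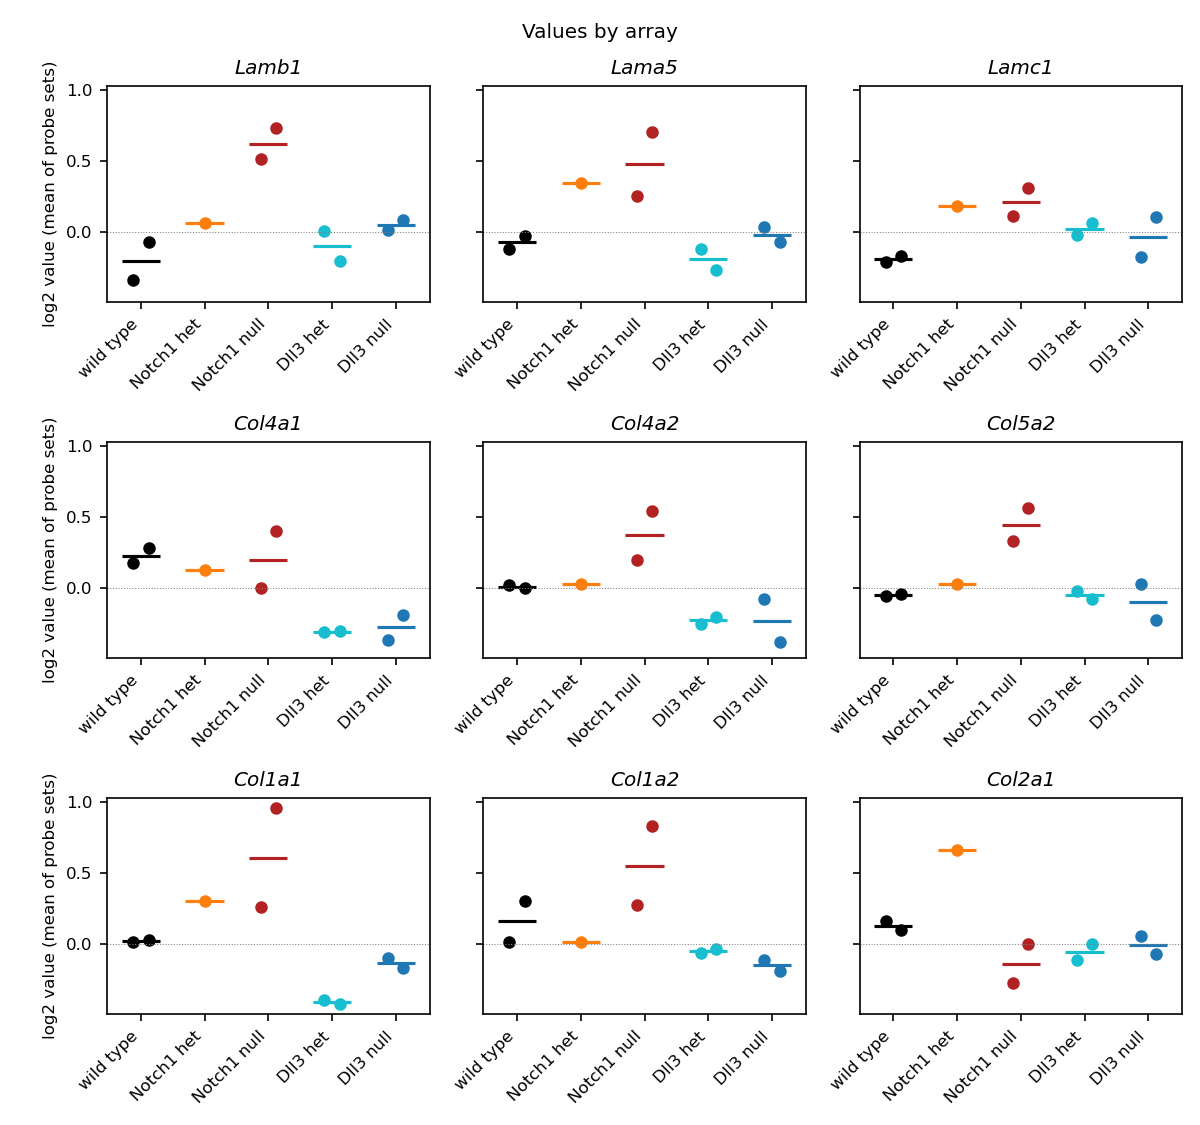
Log2 value on each array (dots; mean of the gene's probe sets) and group mean (line) for 9 genes in the 5 genotype groups; Notch1 het has 1 array. In Notch1 null, Lamb1 (0.51 and 0.73) and Col5a2 (0.33 and 0.56) lie above every other array, whereas Col4a1 and Col4a2 are lowest in the 4 Dll3 arrays.

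Collagen IV chains come from 3 head-to-head gene pairs, and both members of each pair were measured. Col4a1 and Col4a2 encode the chains of the ubiquitous network. Col4a1 read 0.00072 and 0.40 in Notch1 null, 0.13 in Notch1 het, 0.18 and 0.28 in wild type, -0.31 and -0.30 in Dll3 het, and -0.36 and -0.19 in Dll3 null. Col4a2 read 0.20 and 0.54 in Notch1 null, 0.03 in Notch1 het, 0.02 and 0 in wild type, -0.25 and -0.20 in Dll3 het, and -0.08 and -0.38 in Dll3 null. For each of these 2 genes all 4 Dll3 arrays lay below the 5 other arrays, whereas in Notch1 null they parted: both null arrays of Col4a2 were above the 7 others and those of Col4a1 straddled wild type. The difference of Notch1 null from wild type was 0.36 ± 0.13 (1.28-fold, adjusted p = 0.121) for Col4a2 and -0.03 ± 0.13 (95% interval -0.32 to 0.27, adjusted p = 0.935) for Col4a1; the gap between the genes was not tested. The 2 probe sets of Col4a1 disagreed in sign, with 0.20 (adjusted p = 0.475) for 1426348_at and -0.25 (adjusted p = 0.368) for 1452035_at, and the latter was at 0.35 and 0.54 in wild type.

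Col4a5 and Col4a6, which are X-linked, did not pass in any comparison. Col4a5 read 0.31 and 0.59 in Notch1 null, -0.03 in Notch1 het, 0.20 and -0.14 in wild type, -0.22 and -0.24 in Dll3 het, and 0.05 and -0.13 in Dll3 null. Col4a6, whose chain builds a network in smooth muscle and some epithelia, read 0.01 and 0.49 in Notch1 null, 0.26 in Notch1 het, -0.12 and -0.21 in wild type, 0.03 and -0.09 in Dll3 het, and -0.10 and -0.04 in Dll3 null. Both Notch1 null arrays exceeded both wild-type arrays for each gene, by 0.43 ± 0.14 on average for Col4a5 (adjusted p = 0.0772) and 0.42 ± 0.14 for Col4a6 (adjusted p = 0.0932), although replicate 2 alone carried most of the latter. In Col4a5 probe set 1425476_at wild type replicate 1 (0.59) exceeded Notch1 null replicate 1 (0.53), and wild type replicate 2 read 0. Replicate 1 of Notch1 null looked female and both wild-type arrays male, and with sex as a covariate the differences were 0.44 ± 0.16 (adjusted p = 0.123) and 0.48 ± 0.15 (adjusted p = 0.0827). Col4a3 and Col4a4 encode chains that, with Col4a5, form the network of the mature kidney glomerulus. Col4a3 read 0.19 and -0.15 in Notch1 null, 0 in Notch1 het, -0.08 and 0.14 in wild type, -0.02 and 0.34 in Dll3 het, and -0.16 and 0.27 in Dll3 null. Col4a4 read -0.29 and -0.33 in Notch1 null, 0.02 in Notch1 het, -0.25 and -0.29 in wild type, -0.37 and -0.33 in Dll3 het, and -0.13 and -0.03 in Dll3 null. The differences were -0.01 ± 0.18 and -0.04 ± 0.09, and the replicates of Col4a3 differed by more than its group means. The single probe set of Col4a4 is among 10 of the members' 74 that had been divided by a number above their median, a sign that they may lie near a floor.

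Among the fibrillar collagens Col5a2 passed. It encodes a chain of collagen V, which is built into collagen I fibrils and sets their diameter. The values were 0.33 and 0.56 in Notch1 null, 0.03 in Notch1 het, -0.06 and -0.04 in wild type, -0.02 and -0.08 in Dll3 het, and 0.03 and -0.22 in Dll3 null. Both null arrays lay above the 7 others. Col5a2 was 1.41-fold higher in Notch1 null than in wild type (log2 0.50 ± 0.12, adjusted p = 0.0224), with 0.63 ± 0.14 (adjusted p = 0.023) for probe set 1422437_at and 0.36 ± 0.12 (adjusted p = 0.1) for 1450625_at. The call was lost in 5 of 17 alternatives: without Notch1 null replicate 2 (0.38, adjusted p = 0.167), without wild type replicate 1 (0.49, adjusted p = 0.105), without wild type replicate 2 (0.50, adjusted p = 0.102), with quantile normalization (adjusted p = 0.0615) and with sex as a covariate (adjusted p = 0.0548). Col5a1, the chain that pairs with it, read 0.08 and 0.42 in Notch1 null, 0.13 in Notch1 het, -0.06 and -0.11 in wild type, -0.12 and -0.01 in Dll3 het, and 0.01 and -0.10 in Dll3 null. Its null arrays lay above wild type and the difference was 0.34 ± 0.12 (adjusted p = 0.109). Col5a3, the least widespread collagen V chain, differed by 0.11 ± 0.14, with overlapping groups.

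Col1a1 and Col1a2 encode the chains of collagen I, the main fibril of connective tissue and bone. Col1a1 read 0.26 and 0.96 in Notch1 null, 0.30 in Notch1 het, 0.02 and 0.03 in wild type, -0.39 and -0.42 in Dll3 het, and -0.10 and -0.17 in Dll3 null. Col1a2 read 0.27 and 0.83 in Notch1 null, 0.02 in Notch1 het, 0.02 and 0.30 in wild type, -0.06 and -0.03 in Dll3 het, and -0.11 and -0.19 in Dll3 null. In both genes Notch1 null replicate 2 was far above all other arrays and replicate 1 was not, lying beside the heterozygote for Col1a1 and beside wild type replicate 2 for Col1a2. Col1a1 had the highest difference of the fibrillar genes in Notch1 null, 0.59 ± 0.18 (1.50-fold), and did not pass (adjusted p = 0.0662); Col1a2 differed by 0.39 ± 0.17 (adjusted p = 0.174). Col3a1, which forms fibrils with collagen I in soft tissue, read -0.08 and 0.15 in Notch1 null, -0.18 in Notch1 het, 0.14 and 0.15 in wild type, -0.06 and -0.07 in Dll3 het, and -0.11 and -0.07 in Dll3 null. Its arrays overlapped between Notch1 null and wild type, with a difference of -0.11 ± 0.10 (adjusted p = 0.564).

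Col2a1 encodes collagen II of cartilage, made at this stage in the notochord and the sclerotome of the somites. It read -0.28 and 0 in Notch1 null, 0.66 in Notch1 het, 0.16 and 0.10 in wild type, -0.11 and 0 in Dll3 het, and 0.06 and -0.07 in Dll3 null. The single heterozygous array was the highest of the 9 and Notch1 null replicate 1 the lowest. Col2a1 was the lowest fibrillar gene in Notch1 null against wild type (-0.27 ± 0.11, 1.21-fold lower, adjusted p = 0.166). The partner chains of cartilage fibrils, Col11a1 and Col11a2, differed by 0.04 ± 0.16 and -0.05 ± 0.10.

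No gene passed among the 21 other collagens. Col18a1, a basement membrane associated collagen whose fragment endostatin restrains vessel growth, had the highest difference and read 0.12 and 0.45 in Notch1 null, 0.09 in Notch1 het, -0.01 and -0.04 in wild type, -0.05 and -0.13 in Dll3 het, and 0.01 and -0.06 in Dll3 null. Both null arrays lay above the 7 others, and the difference was 0.31 ± 0.12 (adjusted p = 0.123). In Col18a1 probe set 1426955_at Notch1 null replicate 1 (0.18) lay below Notch1 het (0.21). The chains of collagen VI, which forms beaded filaments around cells, differed by 0.17 ± 0.16 for Col6a1, 0.22 ± 0.10 for Col6a2 and 0.30 ± 0.13 for Col6a3, with adjusted p from 0.196 to 0.584. Col9a1, a collagen that coats cartilage fibrils, had the lowest difference of this class (-0.10 ± 0.09, adjusted p = 0.567) and read -0.0014 and 0.16 in Notch1 null, -0.26 in Notch1 het, 0.19 and 0.17 in wild type, -0.29 and -0.22 in Dll3 het, and 0.03 and 0.01 in Dll3 null. Wild type was highest for Col9a1, both heterozygous groups were low, and the null groups of each locus lay between. Its probe sets disagreed in sign for Notch1 null against wild type, with -0.28 for 1428571_at and 0.08 for 1421381_a_at. In the latter wild type, at -0.0043 and 0.09, was not highest, and Notch1 null read 0 and 0.24. The other 16 lay between -0.10 (Col25a1, a membrane-anchored collagen of neurons) and 0.19 (Col17a1, the collagen of epidermal hemidesmosomes). Like that of Col4a4, the single probe set of Col17a1 had been divided by a number above its median.

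**Figure D3:**
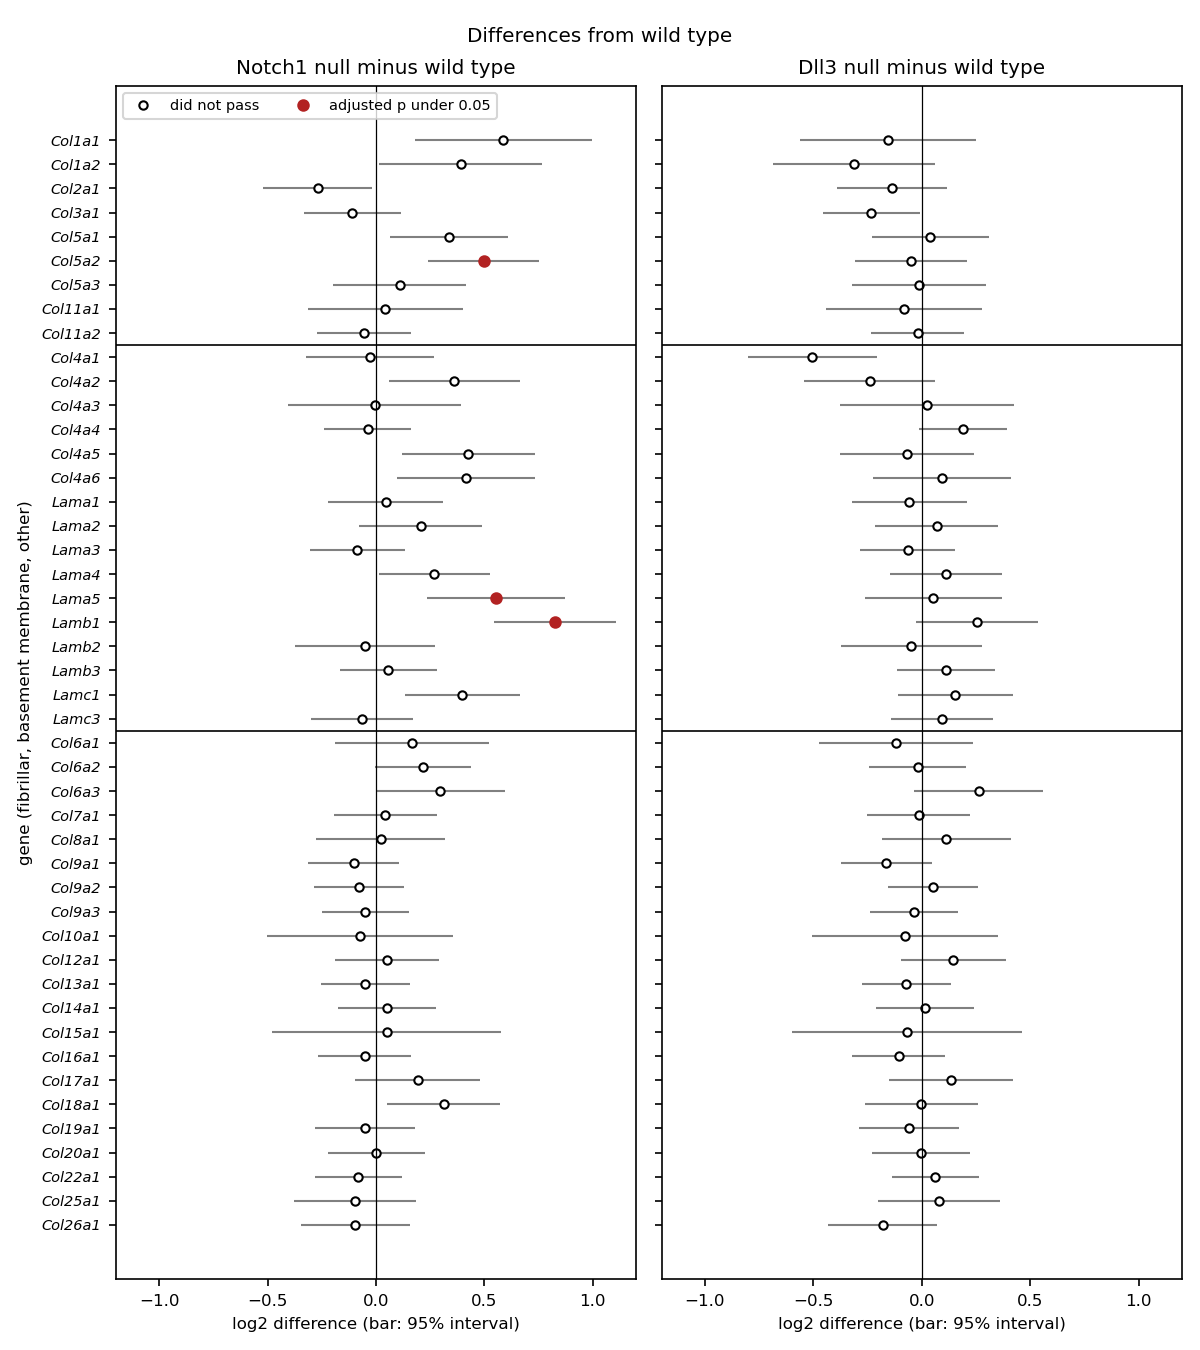
Log2 difference of Notch1 null (left) and Dll3 null (right) from wild type for the 46 genes, with the 95% interval of the limma fit; filled red points have an adjusted p under 0.05. Only Col5a2, Lama5 and Lamb1 are filled on the left and none on the right.

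Within Notch1 null, replicate 2 was above replicate 1 for 34 of the 46 genes (73.9%), against 47.8% of all genes. The median of replicate 2 minus replicate 1 was 0.16 for the members and -0.01 for all genes. By class, the mean log2 value was 0.07 in replicate 1 and 0.35 in replicate 2 for fibrillar genes, 0.06 and 0.24 for basement membrane genes, and -0.13 and -0.04 for the other collagens. Replicate 2 was the highest of the 9 arrays for 20 members (43.5%), among them Col1a1, Col1a2, Col4a1, Col4a2, Lama5 and Lamb1, against 12.3% of all genes. The fibrillar median against wild type was 0.11 without replicate 2 and 0.30 without replicate 1. Without replicate 2 the log2 difference from wild type was 0.72 for Lamb1, 0.38 for Col5a2 and 0.33 for Lama5. Without replicate 1 these differences were 0.94, 0.61 and 0.78. Without wild type replicate 1 they were 0.69, 0.49 and 0.51. The dap level was 5.26 in Notch1 null replicate 1 and 2.62 in Notch1 null replicate 2, the first array was female by its pattern and the second male, and their part in the gap was not tested. Members also leaned to 1 replicate in other pairs. Replicate 2 was the higher for 32.6% of members in Dll3 null (46.5% of all genes) and 60.9% in Dll3 het (50.3% of all genes). In wild type it was the higher for 43.5% (49.2% of all genes).

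**Figure D4:**
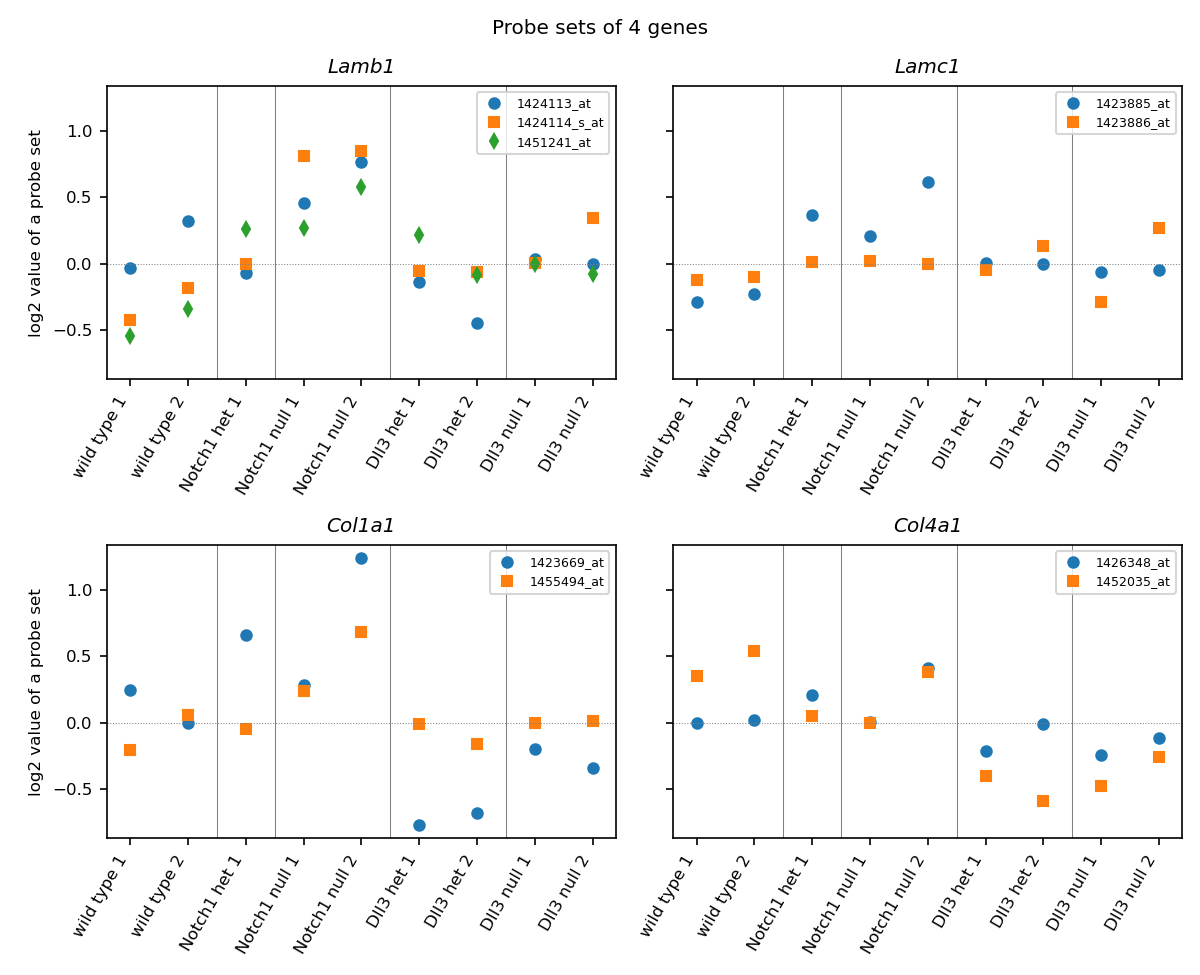
Log2 value of each probe set of Lamb1, Lamc1, Col1a1 and Col4a1 on the 9 arrays; each symbol is 1 probe set. The Col4a1 probe sets part in wild type, where 1452035_at is at 0.35 and 0.54, and those of Lamc1 part in Notch1 null, where 1423885_at reaches 0.62 and 1423886_at reads 0.02 and 0.

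The single heterozygous array allows an allele series, with the error taken from the other groups. Notch1 het against wild type changed 0 of the 46 genes by limma, against 2.25% of all genes, and 7 members and 2322 of all genes had an unadjusted p under 0.05. The nearest were Col2a1 (0.53 ± 0.14, adjusted p = 0.0774) and Col9a1 (-0.44 ± 0.11, adjusted p = 0.0775). For Col9a1 probe set 1428571_at passed by itself (-0.61 ± 0.13, adjusted p = 0.0429). Notch1 null against Notch1 het changed 1 gene, Col2a1, which was 1.74-fold lower in Notch1 null (log2 -0.80 ± 0.14, adjusted p = 0.0211), against 2.45% of all genes changed in either direction. The call rests on the high value of 0.66 of 1 array, which has no replicate, and it was lost without Notch1 null replicate 1 (log2 -0.66, adjusted p = 0.0702), with quantile normalization (adjusted p = 0.0648) and with only these groups (adjusted p = 0.13).

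Counting every array, the 3 genotypes at the Notch1 locus ran in rising order with the number of targeted alleles for 5 members (Lamb1, Lama4, Col4a2, Col5a2 and Col18a1), against 5.35% of all genes. This order is that of gene means and did not hold in every probe set. Notch1 het lay below both wild-type arrays in Lamb1 1424113_at and Col18a1 1418237_s_at. It lay below a single wild-type array in Col5a2 1422437_at and Lama4 1424808_at. Col4a2, with a single probe set, read 0.027 in Notch1 het against 0.023 and 0 in wild type. They ran in falling order for 1 member, Col9a2, against 11% of all genes. Both Notch1 null arrays lay above all 7 others for 5 members (Lamb1, Col4a2, Col4a5, Col5a2 and Col18a1), against 7.32% of all genes. Taken by probe set this failed for Col4a5 and Col18a1. Notch1 null replicate 1 read 0.09 in Col4a5 1425475_at and 0.18 in Col18a1 1426955_at, below Notch1 het at 0.12 and 0.21. Both lay below for 2 members, Col9a2 and Col22a1, against 13.5% of all genes. The single probe set of Col9a2 and 1 of the 2 of Col22a1 had been divided by a number above their median and may lie near a floor. Each count of 5 is 10.9% of the members.

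The same question for loss of the ligand is put by Dll3 null against wild type. By limma 0 of the 46 genes changed, 2 members and 1157 of all genes had an unadjusted p under 0.05 and the lowest adjusted p was 0.275, while 0.00807% of all genes, a single gene, changed. The median difference was -0.08 over the fibrillar genes, of which 8 of 9 were negative, 0.06 over the basement membrane genes and -0.01 over the others. Both Dll3 null arrays lay above both wild-type arrays for 8 members, against 19.9% of all genes, and below for 11 members, against 19.7% of all genes. The gene that differed most was Col4a1 (log2 -0.51 ± 0.13, 1.42-fold lower, 95% interval -0.80 to -0.21, adjusted p = 0.275). Its probe set 1452035_at did not pass at -0.82 ± 0.15 (adjusted p = 0.112), and 1426348_at differed by -0.19.

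Among the fibrillar genes the lowest in Dll3 null was Col1a2 (-0.31 ± 0.17, adjusted p = 0.624) and the highest was Col5a1 (0.04 ± 0.12). Col3a1 differed by -0.23 ± 0.10 (adjusted p = 0.508) and Col4a2 by -0.24 ± 0.13 (adjusted p = 0.64). Lamb1 was the highest basement membrane gene, at 0.25 ± 0.13 (adjusted p = 0.586). Among the other collagens the highest was Col6a3, which read -0.01 and 0.29 in Notch1 null, -0.02 in Notch1 het, -0.32 and 0.0043 in wild type, -0.09 and 0 in Dll3 het, and 0.14 and 0.07 in Dll3 null, a difference of 0.26 ± 0.13 (adjusted p = 0.599); both Dll3 null arrays lay above both wild-type arrays. The lowest was Col26a1, a collagen of developing gonads, which read -0.11 and 0.06 in Notch1 null, 0.22 in Notch1 het, 0.13 and 0.01 in wild type, -0.05 and -0.14 in Dll3 het, and 0 and -0.23 in Dll3 null, a difference of -0.18 ± 0.11 (adjusted p = 0.675) that is smaller than the gap between the 2 Dll3 null arrays.

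Dll3 het against wild type also changed 0 of the 46 genes by limma (lowest adjusted p 0.0859), against 0.113% of all genes. An unadjusted p under 0.05 was found for 5 members and 1800 of all genes. Col4a1 differed by -0.53 ± 0.13 (adjusted p = 0.116), Col9a1 by -0.43 ± 0.09 (adjusted p = 0.0859), Col1a1 by -0.43 ± 0.18 (adjusted p = 0.314) and Lama2 by 0.38 ± 0.13 (adjusted p = 0.22). Tested by probe set, Col4a1 1452035_at (-0.95 ± 0.15) and Col9a1 1428571_at (-0.64 ± 0.10) each passed with an adjusted p of 0.0403. Dll3 null against Dll3 het, which compares arrays of like dap level, changed 0 of the 46 genes and 0% of all genes, with 3 members and 654 genes at an unadjusted p under 0.05. There Col4a1 differed by 0.03 ± 0.13. All 4 Dll3 arrays lay below all 5 other arrays for 4 members, Col1a1, Col1a2, Col4a1 and Col4a2, against 1.7% of all genes, and above for 0 members, against 2.24% of all genes. For the collagen I genes this did not hold in every probe set. Col1a1 1455494_at was lowest in wild type replicate 1 (-0.21), with the Dll3 arrays at -0.16 to 0.01. In Col1a2 1423110_at Notch1 het, at -0.17, lay below every Dll3 array except Dll3 null replicate 2 (-0.22). The dap level separates the 4 Dll3 arrays from the 5 others, so for these 4 genes the Dll3 allele and whatever set the level of dap cannot be told apart.

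Notch1 null was compared with Dll3 null to test whether the effects of the 2 null genotypes differ, since the wild-type arrays cancel from that difference. Of the 46 genes 5 were higher in Notch1 null and 0 lower, 10.9% of the members, against 2.92% of all genes higher and 4.87% lower. They were the collagen I chains Col1a1 (log2 0.74 ± 0.18, 1.67-fold, adjusted p = 0.037) and Col1a2 (0.70 ± 0.17, 1.63-fold, adjusted p = 0.0335), Col4a2 (0.60 ± 0.13, 1.52-fold, adjusted p = 0.0273), Lamb1 (0.57 ± 0.13, 1.49-fold, adjusted p = 0.0256) and Col5a2 (0.55 ± 0.12, 1.46-fold, adjusted p = 0.0221). For Col1a1, Col1a2 and Col4a2 the difference is made up of a higher value in Notch1 null and a lower one in Dll3 null, neither of which passed against wild type, whereas Col5a2 and Lamb1 differed from wild type by -0.05 and 0.25 in Dll3 null. The probe sets of Col1a1 disagreed in sign for Dll3 null against wild type, with -0.39 for 1423669_at and 0.08 for 1455494_at. Between the 2 null genotypes they differed by 1.03 (limma adjusted p = 0.0442) and 0.45 (adjusted p = 0.131). Each of the 5 calls was lost in 4 to 8 of 17 alternatives. With only the arrays of these groups 0 members passed by limma, against 182 of all 12393 genes. Without Notch1 null replicate 2 the 5 differences were 0.39 to 0.46, and without Notch1 null replicate 1 they were 0.66 to 1.09. These groups also differ in dap, 5.26 and 2.62 against 0.360 and 0.377.

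Other matrix proteins, among them some that bind collagens or laminins, were followed in 29 genes. In Notch1 null against wild type 9 rose and 1 fell, with a median log2 difference of 0.12. Over all genes 3.76% rose and 8.35% fell in that comparison. Fn1, which encodes fibronectin, the matrix protein on which early mesoderm migrates, rose 2.22-fold (log2 1.15 ± 0.13, adjusted p = 0.00135), and Nid2, a nidogen that links the laminin network to collagen IV, rose 1.78-fold (0.83 ± 0.11, adjusted p = 0.00233). Nid1, the other nidogen, and Hspg2, the basement membrane proteoglycan perlecan, differed by 0.31 ± 0.10 and 0.14 ± 0.11 without passing. The others that rose were Postn, the matricellular protein periostin (log2 0.85), Lum, the fibril-binding lumican (0.80), Sparc, a collagen-binding glycoprotein (0.68), the basement membrane proteoglycan gene Agrn (0.58), Vcan, a hyaluronan-binding proteoglycan (0.55), the calcium-binding matrix protein gene Smoc2 (0.47) and Bgn, the small proteoglycan biglycan (0.37). Vtn, the plasma and matrix protein vitronectin, fell by 0.70 on the log2 scale.

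Of 24 genes that modify, fold or crosslink collagen 3 rose and 2 fell in Notch1 null (median 0.03), beside 3.76% of all genes that rose and 8.35% that fell. The genes that rose act inside the cell on new chains: P4ha2 (log2 1.50, 2.83-fold, adjusted p = 0.0022) and P4ha1 (0.88, 1.84-fold, adjusted p = 0.011) encode prolyl hydroxylase subunits and Plod2 (1.14, 2.20-fold, adjusted p = 0.0014) a lysyl hydroxylase. Pcolce, an enhancer of procollagen processing, fell by 0.56 and Ppib, a prolyl isomerase of the endoplasmic reticulum, by 0.37, and Serpinh1, the collagen chaperone, differed by -0.01 ± 0.11. The folds of these 3 hydroxylase genes lay above 1.77, the highest among the 46 chain genes, a difference between genes that was not tested. Of 24 matrix protease and inhibitor genes 2 rose and 1 fell (median -0.01), where 12.1% of all genes changed in either direction. Reck, a membrane-bound inhibitor of metalloproteases, rose by 0.64 on the log2 scale and Adamts1, a secreted metalloprotease, by 0.57. Mmp14, a membrane-bound collagenase, fell by 0.47. Of 14 receptor genes 0 passed by limma (median -0.05). In Dll3 null against wild type 0 genes of these 4 lists passed by limma, where 1 of all 12393 genes did.

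Marker lists of tissues that make matrix were measured in the same arrays for Notch1 null against wild type. In that comparison 3.76% of all genes rose and 8.35% fell. Of 13 endothelial markers 4 rose (Kdr, Tek, Sox17 and Sox18) and 0 fell, and their mean log2 value was 0.14 and 0.34 in Notch1 null against -0.06 and 0.01 in wild type. Of 11 surface ectoderm and epithelial markers 4 rose (Dsp, Tfap2a, Cdh1 and Esrp1), with means of 0.20 and 0.16 against -0.06 and -0.12, and of 10 cardiac muscle markers 2 rose (Myh7 and Ttn), with means of 0.16 and 0.28 against -0.09 and -0.08. Of 16 mesenchyme and sclerotome markers 4 fell (Pax1, Meox2, Tcf15 and Twist1) and 1 rose (Pdgfra), with means of -0.18 and -0.05 against 0.19 and 0.06. Of 5 notochord markers 0 passed, with means of -0.12 and -0.31 against 0.04 and -0.01. Of 22 markers of parietal and visceral endoderm, tissues outside the embryo proper that secrete much laminin and collagen IV, 5 rose (Krt8, Krt18, Krt19, Sox17 and Gata6), but their array means of 0.28 and -0.13 lay within the wild-type range of -0.15 to 0.36, and of 8 trophoblast and decidua markers 0 passed. Most markers of each list did not pass, and the part of tissue make-up in the changes of Lamb1, Lama5 and Col5a2 was not tested.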

How the data were processed

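Whole embryos at 9.5 dpc were measured on 9 arrays in 5 genotype groups. The authors deposited linear ratios; RMA is named per the submitters' processing notes, with its version not given in the sources used here. Of 22690 probe sets, 19847 have a median ratio of exactly 1, 2824 lie more than 0.002 below 1 and 0 above, so each was divided by 1 number of its own, a step no source used here states. Absolute level, detection and a filter on low values are therefore not to be had, and the small number of arrays limits the precision.

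Ratios were turned into log2 values without a pseudocount and averaged over the probe sets with exactly 1 symbol in the platform annotation (20380; 691 had several and 1555 none; 64 controls were set aside). By gene identifier 20364 symbols were matched to RefSeq GRCm38.p6 and 0 changed; the files name no build. All genes were fitted in R 4.3.3 by lmFit and eBayes of limma 3.58.1 (1 mean per genotype over all 9 arrays; 4 residual and 5.64 prior degrees of freedom), with Benjamini-Hochberg adjustment within each of 7 comparisons and a threshold of 0.05. Errors are standard errors of that fit, and Notch1 het, 1 array, is assumed to vary like the other groups. The fit was tested on simulated data. Values on every array are given for genes changed in a comparison, all collagen I, II, III and IV and laminin genes, and the highest and lowest of each class in each null. The members and lists were chosen with earlier results of these data known. Alternatives were other scalings and summaries, floor-divided probe sets left out, fits of only the groups compared, the replicate number as a block, sex as a covariate, robust eBayes, single probe sets and each array left out. Over all genes same-numbered replicates did not deviate together (correlations of replicate differences from -0.12 to 0.18), so outside that block the numbers are used only as names. In each pair except wild type replicate 1 looked female and replicate 2 male, so there the replicate block and sex coincide.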

Additional observations from a re-analysis of the deposited data

Results flagged for a closer look

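In 5 genes the difference between the effects of the 2 null genotypes, tested in the limma fit as Notch1 null minus Dll3 null, had an adjusted p under 0.05. The log2 difference was 0.74 for Col1a1 (adjusted p = 0.037), 0.70 for Col1a2 (adjusted p = 0.0335), 0.60 for Col4a2 (adjusted p = 0.0273), 0.57 for Lamb1 (adjusted p = 0.0256) and 0.55 for Col5a2 (adjusted p = 0.0221). All 5 were higher in both Notch1 null arrays than in both Dll3 null arrays. Each call was lost in 4 to 8 of 17 alternatives, among them without Notch1 null replicate 2, where the differences were 0.39 to 0.46 and the adjusted p 0.136 to 0.198, and without either Dll3 null array, where the adjusted p was 0.0525 to 0.141. The dap control RNA differs between the same arrays, and its part in these differences was not tested.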

How the results depend on the processing

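None of the 9 changes called among the members turned its direction in the alternatives run. With 1 array left out, the members changed ranged from 1 to 8 for Notch1 null against wild type, from 0 to 1 for Notch1 null against Notch1 het and from 0 to 8 for Notch1 null against Dll3 null. The median differences against wild type then ranged from 0.0490 to 0.300 for fibrillar and -0.0345 to 0.00325 for other genes in Notch1 null, and from -0.175 to -0.0816 for fibrillar and 0.0133 to 0.0829 for basement membrane genes in Dll3 null. The median of the other genes in Notch1 null was 0.0327 with median centring, 0.0618 with quantile normalization and 0.0329 without floor-divided probe sets. With sex as a covariate the Dll3 null medians were -0.0609 for fibrillar and 0.0934 for basement membrane genes and the Notch1 null fibrillar median 0.200. Without floor-divided probe sets the Notch1 null basement membrane median was 0.206. Fitting only the groups compared gave 0 members for Notch1 null against Notch1 het and against Dll3 null, and quantile normalization 0 for the former. Single probe sets gave 1 member for Notch1 het and 2 for Dll3 het against wild type, and 2 for Notch1 null against Notch1 het. With the replicate block 4 members changed in Notch1 null against wild type and 6 against Dll3 null, adding Lamc1 (adjusted p = 0.0397) and Col4a1 (adjusted p = 0.0416), and it ended no call among the members. Over all genes, 1501 changed in Notch1 null against wild type, 727 with quantile normalization, 372 without Notch1 null replicate 2, 851 without replicate 1, 579 without wild type replicate 1 and 485 without wild type replicate 2. The causes of these changes were not tested. The smallest log2 difference called among the members was 0.50.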
